A study of Mus musculus with 18 samples.

Results

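The effect of deleting the parathyroid hormone receptor Pth1r on gene expression was compared between GFP-negative cells sorted from bone and GFP-negative cells sorted from marrow. The measure was a difference of differences, taken for each gene: knockout minus control in bone, less knockout minus control in marrow, on the log2 scale. It drew on 12 of the 18 libraries of the series, 3 in each of 4 groups, chosen by their titles. A positive value means that a gene stood higher in knockout over control in bone than in marrow, and a negative value the reverse, whatever the direction within either compartment.

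The mice were of 2 genotypes, labelled Wild type and Conditional PTH1R KO, and were taken at postnatal day 21. All libraries were made from osterix-derived cells split by GFP. The 4 groups used here were the GFP-negative ones, whose titles carry the label Tm+: control marrow, knockout marrow, control bone and knockout bone. The marrow libraries are described as bone marrow stromal cells and the bone libraries as bone cells. RNA from the sorted cells was amplified with SMART-Seq v4, a method for small inputs that primes on poly(A) tails, before libraries were made. The series title places the deletion in osteoprogenitors. Neither the driver of the deletion nor whether the controls carried it could be read from the labels. They do not say whether the 3 libraries of a group came from separate mice or from pooled cells, and the p-values below reflect only variation among these libraries, which may be technical in part.

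PTH1R is a receptor coupled to G proteins that binds parathyroid hormone and parathyroid hormone-related protein and signals largely through cyclic AMP and protein kinase A. In cells of the osteoblast lineage it takes part in bone formation, in the release of factors that act on osteoclasts and in the choice between osteoblast and adipocyte fates. Osterix, encoded by Sp7, is a transcription factor of osteoblast precursors, and cells descended from those that expressed it are found on bone, within growth cartilage and among the stromal cells of marrow.

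The 12 libraries held 16443595 to 24686089 reads assigned to genes, and 18486 to 20237 genes had at least 1 read. The first principal component (50.2% of the variance) separated bone from marrow and the next (21.3%) the genotypes, but each also differed with the other factor. On the first, marrow lay at -43.8 to -29.3 in controls and -101 to -94.6 in knockouts. Bone lay at 89.8 to 96.5 and 37.0 to 46.5. The 2 shares are therefore not those of compartment and genotype alone. Control libraries carried the markers of their labels: the summed level of 23 marrow reticular stroma genes was 36800 to 50000 CPM (counts per 1e+06 assigned reads, after TMM scaling) in marrow and 2710 to 3440 CPM in bone. The sum over 23 osteoblast genes was 189000 to 280000 CPM in control marrow and 365000 to 404000 CPM in control bone, and the sum over 22 chondrocyte genes 2730 to 3860 and 43500 to 58400 CPM. In each group replicates 1 and 2 carried the Y-linked transcript Ddx3y at 50.8 to 80.3 CPM, and replicate 3 had it at 0.714 to 1.69 CPM and Xist at 5.51 to 10.3 CPM. This split was the same in all 4 groups, so replicate 3 of each had the transcripts of female cells and replicates 1 and 2 those of male cells, and the spread within a group holds a difference of sex. The labels used here give no sex. A pair of marrow libraries stood apart. Control replicate 3 was high in smooth muscle genes, with Acta2 at 375, 448 and 1675 CPM in replicates 1, 2 and 3. Knockout replicate 2 was high in megakaryocyte and platelet genes, with a sum of 329 CPM over 10 genes against 1.82 to 5.75 CPM in the other 11 libraries. In bone, control replicate 2 was high in erythroid, neutrophil and macrophage genes, with values given below.

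The targeted gene was lower in the knockout in both compartments by about the same amount. Pth1r (chromosome 9, 110722085 to 110747145, minus strand, mm10, the receptor itself) stood at 541, 580.3 and 552 CPM in control marrow and 372, 337 and 318 CPM in knockout marrow. In bone it stood at 1673, 1668 and 1909.8 CPM in the controls and 1397, 1136 and 1030.4 CPM in the knockouts. The groups did not overlap in either compartment, and transcripts of the gene remained in all 6 knockout libraries. The log2 change was -0.70 in marrow (adjusted p = 0.0002) and -0.56 in bone (adjusted p = 0.0014). The difference between them, 0.14 ± 0.18 (SE, adjusted p = 0.72), did not pass the test, and under scaling by library totals it turned negative (-0.23). Here and below the error of a difference is its standard error. Counts were summed over whole genes and the labels do not name the deleted exons, so reads inside and outside them were not separated.

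Across 15516 genes tested, 1209 (7.79%) differed in their response to the knockout between bone and marrow at an adjusted p under 0.05, by edgeR's quasi-likelihood test with Benjamini-Hochberg adjustment over all genes tested. The difference was positive for 696 genes (4.49%) and negative for 513 (3.31%), and it was at least 2-fold for 470 and 209 of these. For comparison, the knockout raised 3581 genes (23.1%) and lowered 3844 (24.8%) in marrow, and raised 3335 (21.5%) and lowered 3980 (25.7%) in bone. Counts within a compartment, here and for the lists below, are given with TMM scaling and without a correction for transcript length. The 2 effects, measured on separate libraries, had a Spearman correlation of 0.634 across genes, a description only since genes are not independent. The plot of the 2 effects shows most genes along the diagonal. The median gene had a difference of -0.04, with a median standard error of 0.316, or 0.202 among the 8004 genes averaging 10 CPM or more.

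Genes that differed did so in several ways. Of the 1209, 173 passed the test in both compartments in opposite directions: 112 fell in marrow and rose in bone, and 61 rose in marrow and fell in bone. A further 321 passed in both in the same direction, with the larger change in bone for 192 and in marrow for 129. For 391 genes the marrow effect alone passed, 268 of them lower in the knockout, and for 322 the bone effect alone, 155 higher and 167 lower. The split of positive to negative differences depended on scaling: positive ones made up 57.6% with TMM factors, 70.7% with DESeq2's size factors and 10.9% with library totals alone, which moved the median of all genes by -0.373. A single gene, Col1a1, took 6.38 to 33.6% of counts in these libraries, with its values by library given below.

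**Figure D1:**
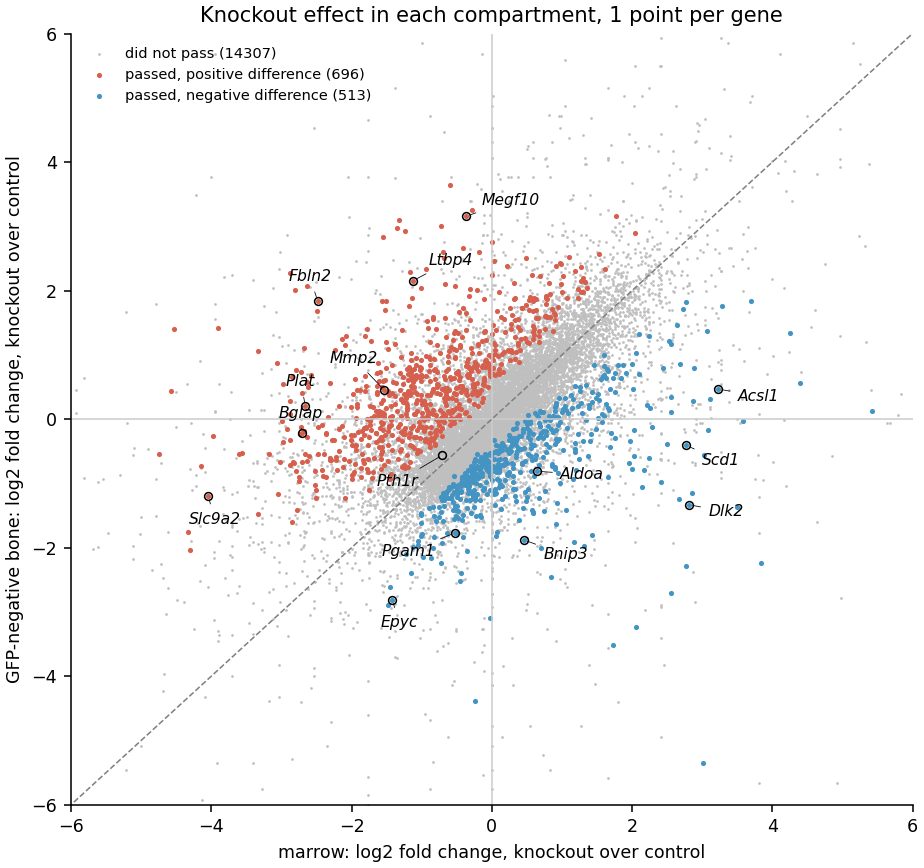
Log2 fold change of knockout over control in marrow (horizontal) and in GFP-negative bone (vertical) for the 15516 genes tested, 1 point per gene, with 3 libraries per group. Genes beyond 6 on either axis lie outside the plot, and the dashed diagonal marks equal effects. The 696 genes with a positive difference lie above the diagonal, the 513 with a negative one below it, and Pth1r lies close to it.

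Of the 6 genes with the smallest p-values among positive differences, 5 fell in the marrow knockouts. Mmp2 (chromosome 8, 92827291 to 92853420, plus strand), a gelatinase that cuts denatured collagen, stood at 721, 939.7 and 922 CPM in control marrow and 309, 345 and 239.6 CPM in knockout marrow. In bone it stood at 1831, 1801 and 2078 CPM in controls and rose to 2763, 2498 and 2543 CPM. It thus fell in marrow and rose in bone with no overlap of groups, and the difference of effects was 1.98 ± 0.17 (SE, adjusted p = 4.4e-06). Plat (chromosome 8, 22757727 to 22782844, plus strand), the tissue plasminogen activator, went from 18.2, 19.6 and 21.6 CPM to 3.22, 3.77 and 2.25 CPM in marrow. Its bone libraries held 51.4, 49.3 and 53.7 CPM in controls and 65.1, 54.8 and 58.0 CPM in knockouts, apart by a narrow margin, and the bone effect of 0.21 did not pass (adjusted p = 0.33). Here the difference of 2.86 ± 0.27 (SE, adjusted p = 5.5e-06) came with a change that passed in marrow alone.

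Itgb5, an integrin subunit, had a difference of 1.69 ± 0.16 (SE, adjusted p = 5.5e-06), from effects of -1.01 in marrow and 0.68 in bone. Gprc5c, an orphan receptor, moved by -1.19 in marrow and 0.70 in bone (difference 1.89 ± 0.18, adjusted p = 6.2e-06), and Fxyd6, a regulator of the sodium pump, by -1.96 in marrow and 0.62 in bone (difference 2.57 ± 0.26, adjusted p = 1.4e-05). These 3 fell in marrow and rose in bone. Gpc1, a cell surface heparan sulfate proteoglycan, was the exception of the 6: it stood at 436, 489.9 and 479 CPM in control marrow and 427, 369.6 and 436 CPM in knockout marrow, an effect that did not pass (-0.19, adjusted p = 0.085). In bone it rose from 667, 743 and 745 CPM to 1562, 1407 and 1439 CPM, and the difference was 1.22 ± 0.12 (SE, adjusted p = 1.3e-05). All 6 passed in each of the 12 fits that left out 1 library.

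Of the 6 genes with the smallest p-values among negative differences, 5 rose in the marrow knockouts. Bnip3 (chromosome 7, 138890836 to 138909519, minus strand), a mitochondrial protein of mitophagy induced by low oxygen, stood at 29.3, 27 and 23.2 CPM in control marrow and 32.3, 43.4 and 33.4 CPM in knockout marrow. Control bone held 129.8, 101 and 124 CPM and knockout bone 36.4, 30.7 and 29.3 CPM. The gene rose in marrow (0.46) and fell in bone (-1.88) to the marrow range, with a difference of -2.34 ± 0.19 (SE, adjusted p = 3.8e-06). Aldoa (chromosome 7, 126795234 to 126800751, minus strand), the glycolytic aldolase, rose from 294, 272 and 320.4 CPM to 409, 465 and 507 CPM in marrow. In bone it fell from 361, 349 and 350.2 CPM to 195, 207 and 202 CPM, so the groups separated in opposite directions (difference -1.45 ± 0.12, adjusted p = 3.8e-06).

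Acsl1 (chromosome 8, 46471037 to 46536051, plus strand), which activates long-chain fatty acids, rose from 27.3, 20.8 and 23.7 CPM to 246, 243 and 184 CPM in marrow. In bone the values were 11.9, 12.5 and 10.7 CPM in controls and 15.5, 16.8 and 16.1 CPM in knockouts, a change of 0.47 that did not pass (adjusted p = 0.075). The difference of -2.76 ± 0.28 (SE, adjusted p = 1.3e-05) thus followed a rise in marrow. Sc5d, a late enzyme of cholesterol synthesis, moved by 0.91 in marrow and -0.74 in bone (difference -1.65 ± 0.15, adjusted p = 5.5e-06). Pgam1, a glycolytic phosphoglycerate mutase, fell in both compartments and further in bone (-0.52 in marrow and -1.77 in bone, difference -1.25 ± 0.13, adjusted p = 1.4e-05). Arxes2 moved by 2.14 in marrow and -1.05 in bone (difference -3.19 ± 0.29, adjusted p = 5.5e-06), a value that is uncertain because Arxes1 is a near-identical neighbour and reads could be split between them.

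**Figure D2:**
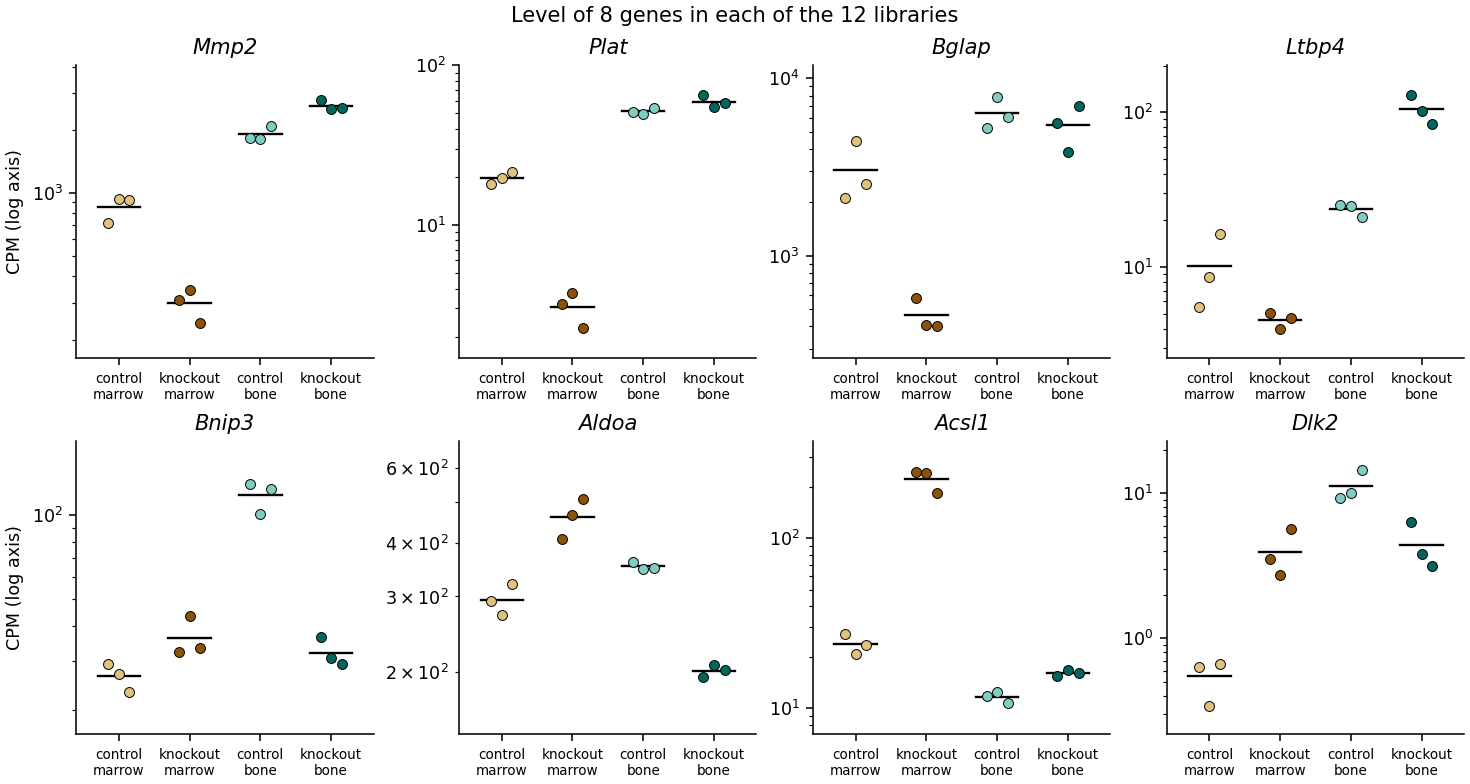
CPM (log axis) of 8 genes in the 12 libraries, 1 point per library, with a horizontal line at the mean of the 3 libraries of each group. In Mmp2, Plat, Bglap and Ltbp4 the knockout marrow points lie below the control marrow points. In Bnip3, Aldoa and Dlk2 the knockout points lie above the controls in marrow and below them in bone, and in Acsl1 they lie above by far more in marrow.

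Osteoblast genes fell in marrow and mostly did not in bone. Of the 23 genes of the osteoblast list, all measured, 17 had a positive difference that passed and 0 a negative one (0 at an unadjusted p under 0.05 and 0 by DESeq2), with a median of 1.40 against -0.04 over all genes tested. In marrow 16 fell and none rose, and in bone 7 rose and 2 fell. Their medians were -1.0 in marrow and -0.01 in bone. The list includes Pth1r, the deleted gene, which is among those that fell in each compartment. The summed level of the list was 189000 to 280000 CPM in control marrow and 86100 to 121000 CPM in knockout marrow, and 365000 to 404000 and 497000 to 717000 CPM in bone. Most of this sum was type I collagen, so it does not describe the list as a whole. In bone the mean of Col1a1 went from 231720 CPM in controls to 366840 CPM in knockouts, and that of Col1a2 from 69540 to 153910 CPM. Leaving out any 1 library gave 16 to 18 positive calls, and replicates 1 and 2 alone gave 13. Scaling by library totals gave 15 positive calls and 1 negative. In bulk samples fewer cells of a type and less RNA of that type per cell cannot be told apart.

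Bglap (chromosome 3, 88383501 to 88384464, minus strand), which encodes osteocalcin, a protein of mature osteoblasts, stood at 2126, 4418 and 2546 CPM in control marrow and 579.7, 409 and 399 CPM in knockout marrow. In bone it stood at 5231, 7865 and 6077 CPM in controls against 5586, 3838 and 7029 CPM in knockouts. The marrow groups were far apart and the bone groups overlapped, with a difference of 2.49 ± 0.38 (SE, adjusted p = 0.00069). Bglap2, a near-identical copy with which reads could be shared, had a difference of 2.50, so the split between them is uncertain. Both chains of type I collagen fell in marrow and rose in bone. Col1a1 took 13.5, 18.2 and 16.9% of all counts in control marrow and 8.66, 7.42 and 6.38% in knockout marrow. In bone it took 22.8, 22.6 and 20.4% in controls and 28.1, 25.4 and 33.6% in knockouts. Its log2 effects were -1.26 in marrow and 0.66 in bone, a difference of 1.92 ± 0.29 (SE, adjusted p = 0.00036). For Col1a2 they were -0.78 in marrow and 1.15 in bone, a difference of 1.93 ± 0.27 (SE, adjusted p = 0.00017).

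Among other matrix genes, Sparc, a collagen-binding glycoprotein, moved by -1.44 in marrow and -0.01 in bone and Serpinf1, a secreted protein needed for mineralization, by -1.78 in marrow and 0.00 in bone, the marrow change passing in both and the bone change in neither. Their differences were 1.43 ± 0.21 and 1.79 ± 0.26. Alpl, the phosphatase that frees phosphate for mineral, stood at 1389 ± 195 CPM (SD, n = 3) in control marrow, 516 ± 63.1 CPM in knockout marrow, 3171 ± 151 CPM in control bone and 2682 ± 193 CPM in knockout bone. Its fall passed in marrow (-1.43) and did not in bone (-0.24, adjusted p = 0.08), and the difference was 1.19 ± 0.16 (SE, adjusted p = 0.0001). Ibsp, the bone sialoprotein, fell in marrow (-1.16) with a bone value of 0.37 that did not pass. Spp1, osteopontin, fell in marrow (-0.79) and rose in bone (1.40), with bone values of 4836, 4638 and 4116 CPM in controls and 9770.5, 13986 and 12075 CPM in knockouts (difference 2.19 ± 0.36, adjusted p = 0.001).

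Of the transcription factors Runx2 and Sp7, the first rose in bone and the other fell in marrow. Runx2, the factor required for osteoblast commitment, stood at 37.4, 48.7 and 40.5 CPM in control marrow and 45.7, 45.8 and 46.9 CPM in knockout marrow, with no change that passed (0.13). It rose in bone from 42.8, 58.9 and 52.3 CPM to 84.7, 90.9 and 105 CPM, and the difference was 0.73 ± 0.17 (SE, adjusted p = 0.011). Sp7, which acts downstream of it, fell in marrow (-0.57) and was not called in bone (0.11). Its difference of 0.68 ± 0.18 (SE, adjusted p = 0.027) passed in 5 of the 12 fits that left out 1 library.

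**Figure D3:**
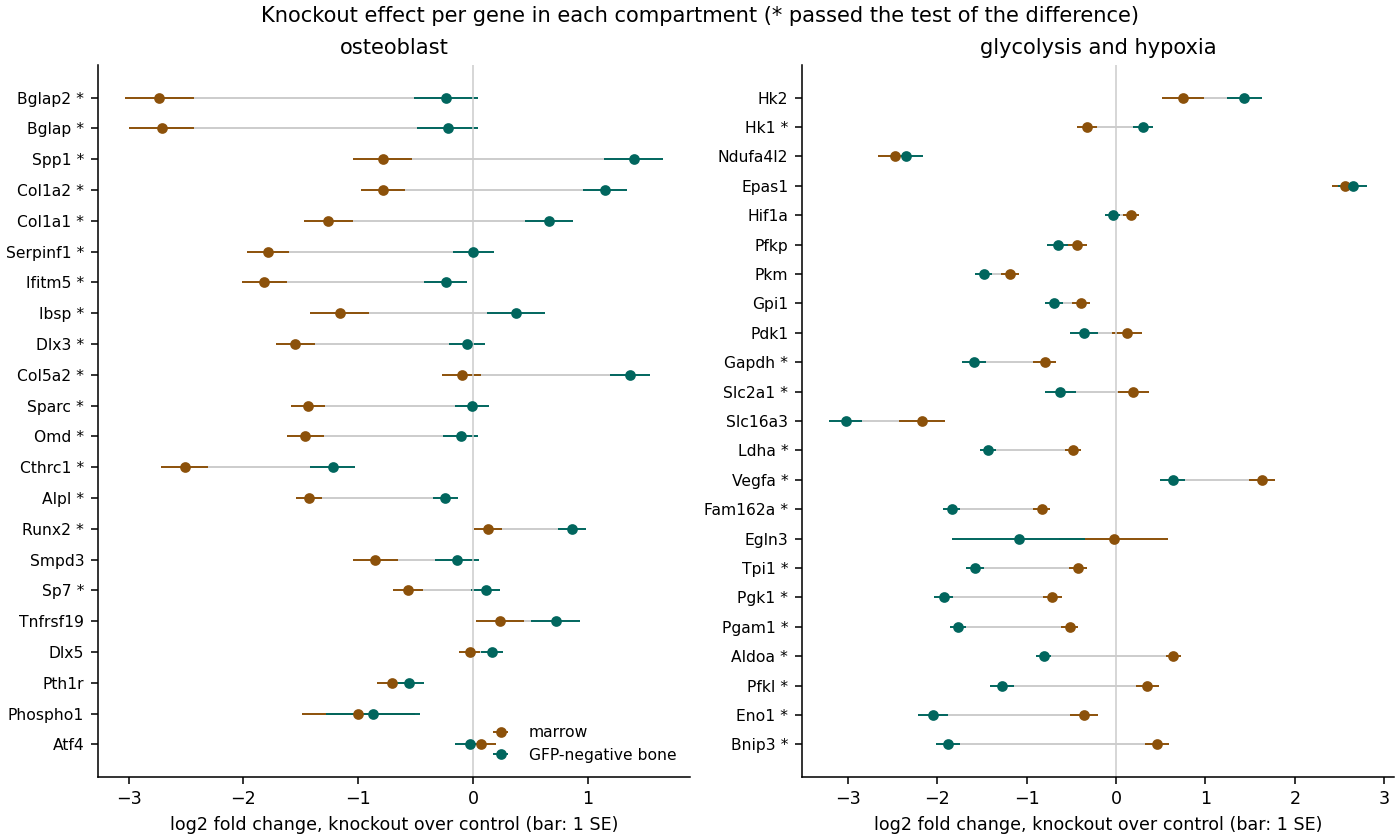
Log2 fold change of knockout over control, with 1 standard error, in marrow (brown) and GFP-negative bone (green) for the members of the osteoblast list and of the glycolysis and hypoxia list, ordered by the difference. Car9, with very few reads, and 1 osteoblast gene are not drawn. For 17 of all 23 osteoblast genes the bone point lies to the right of the marrow point by a difference that passed, and for 12 of 24 glycolysis and hypoxia genes to the left.

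Glycolytic genes showed the reverse order: in bone they fell by more than in marrow. Of 24 genes of the glycolysis and hypoxia list, all measured, 12 had a negative difference that passed and 1 a positive one (Hk1, a hexokinase, 0.62), and the median was -0.90. In bone 16 fell and 4 rose, and in marrow 12 fell and 6 rose, with medians of -1.35 and -0.34. Eno1, an enolase, stood at 424, 374 and 409 CPM in control marrow and 258, 245 and 439.9 CPM in knockout marrow, where the groups overlapped. In bone it fell from 970.3, 898 and 987 CPM to 236, 213 and 243 CPM (difference -1.69 ± 0.23, adjusted p = 0.00012). The higher level of the control bone libraries was no longer seen in the knockout bone libraries.

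Most steps of the pathway took part. Pfkl, the liver-type phosphofructokinase, rose in marrow (0.35) and fell in bone (-1.27, difference -1.62 ± 0.18, adjusted p = 2.6e-05). Tpi1, Gapdh, Pgk1 and Ldha, which act between the triose phosphates and lactate, fell in both compartments and by more in bone, with differences of -1.15 ± 0.14, -0.79 ± 0.18, -1.21 ± 0.15 and -0.95 ± 0.13. Ldha went from 474, 466 and 465 CPM to 308, 336 and 361 CPM in marrow and from 1329.9, 1291 and 1339 CPM to 476, 482 and 510 CPM in bone. Vegfa, the angiogenic growth factor that responds to hypoxia, rose in both and by more in marrow (1.63 in marrow and 0.63 in bone, difference -1.0 ± 0.20, adjusted p = 0.0034). Hif1a, the oxygen-sensitive factor, was not called in either compartment (0.17 in marrow and -0.04 in bone), while Epas1, its relative, rose in both (2.56 in marrow and 2.64 in bone) with a difference of 0.08 ± 0.21 that did not pass. The list kept 11 to 12 negative calls in each fit that left out 1 library.

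Promoter sequences are shown for members of these 2 lists because their genes moved together, and for Nr4a2, a gene of the cyclic AMP list whose difference passed and whose stretch holds 3 copies of the shorter cyclic AMP motif. They come from RefSeq (build GRCm38.p6), cover the 250 bases before each annotated start, read 5′ to 3′ on the gene's strand, and are trimmed here to about 40 bases on either side of the match nearest the start. Capitals mark the RUNX core ACCACA in the first 3, the HIF core ACGTG or GCGTG in the next 3 and the shorter cyclic AMP motif TGACG in the last, on either strand, and overlapping matches run together. The stretches lie at chr3:88384553-88384638 (minus strand), chr11:75422668-75422753 (minus strand), chr5:104434943-104435028 (plus strand), chr7:138909507-138909581 (minus strand), chr7:46845730-46845803 (plus strand), chr19:41911743-41911827 (plus strand) and chr2:57124070-57124154 (minus strand).
Bglap: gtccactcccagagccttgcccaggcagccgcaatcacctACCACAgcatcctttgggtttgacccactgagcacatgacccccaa
Serpinf1: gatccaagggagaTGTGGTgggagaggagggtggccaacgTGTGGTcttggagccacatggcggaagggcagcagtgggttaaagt
Spp1: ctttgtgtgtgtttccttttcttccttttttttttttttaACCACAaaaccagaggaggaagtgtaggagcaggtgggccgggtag
Bnip3: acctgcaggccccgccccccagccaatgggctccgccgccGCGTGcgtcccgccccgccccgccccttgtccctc
Ldha: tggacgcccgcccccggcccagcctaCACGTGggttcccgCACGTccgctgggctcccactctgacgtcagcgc
Pgam1: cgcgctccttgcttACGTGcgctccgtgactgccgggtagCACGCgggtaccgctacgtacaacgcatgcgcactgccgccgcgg
Nr4a2: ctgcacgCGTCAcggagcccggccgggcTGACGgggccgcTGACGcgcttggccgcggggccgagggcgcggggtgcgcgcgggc

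The RUNX core was present in 4614 of 32851 promoters of the table (14%) and in 4 of 19 promoters of the whole osteoblast list (21.1%). It was present in 4 of 12 promoters of the osteoblast genes with a positive difference (10 of the 17 genes had an entry). The glucocorticoid and circadian list had it in 6 of 33 (18.2%). The HIF core was present in 38.6% of all promoters, in 24 of 31 promoters of the glycolysis and hypoxia list (77.4%) and in 15 of 18 promoters of its members with a negative difference. A high share was not particular to that list. The glucocorticoid and circadian list had it in 23 of 33 promoters (69.7%) and the PTH signalling and cyclic AMP list in 22 of 38 (57.9%). The contractile list had it in 7 of 15 (46.7%) and the osteoblast list in 7 of 19 (36.8%). The full cyclic AMP element TGACGTCA, which contains TGACG on both strands, occurred in 1.55% of all promoters and its first 5 letters, TGACG, in 17.8%. Among 38 promoters of the PTH signalling and cyclic AMP list they occurred in 2 and 16. The CArG box occurred in 1.47% of all promoters and in 3 of 15 of the contractile list, and the glucocorticoid response element in 0.128% and in 2 of 33 of the glucocorticoid and circadian list. In the promoters of the 12 genes with the largest positive and the 12 with the largest negative differences (27 promoters of 17 genes in the table), TGACG occurred in 2, and the CArG box, the full cyclic AMP element and the glucocorticoid element in none. There the HIF core occurred in 5 of 13 promoters on the positive side and 9 of 14 on the negative side. The RUNX core occurred in 1 of 13 and 2 of 14. A match is a run of letters and not a measured site.

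The genes that passed in both compartments in opposite directions were led, on the side that fell in marrow and rose in bone, by secreted and matrix proteins. Ltbp4 (chromosome 7, 27305136 to 27337692, minus strand), which stores latent TGF-beta in the matrix, stood at 5.50, 8.68 and 16.3 CPM in control marrow and 5.05, 3.99 and 4.69 CPM in knockout marrow. In bone it rose from 25.3, 24.7 and 21.0 CPM to 130.2, 101 and 84.1 CPM, with a difference of 3.28 ± 0.44 (SE, adjusted p = 0.00018). Fbln2, an elastic fibre protein, and Col14a1, a collagen of fibril surfaces, had low marrow levels: Fbln2 held 1.35, 2.86 and 7.86 CPM in control and 0.451, 0.672 and 1.03 CPM in knockout marrow, and Col14a1 1.68, 3.55 and 13.1 and 1.32, 1.01 and 0.704 CPM. The differences were 4.33 ± 0.78 (SE, adjusted p = 0.0027) and 4.18 ± 0.74 (SE, adjusted p = 0.0021). Control marrow replicate 3 was the highest in both, and without it the differences fell to 3.43 and 2.98 and still passed.

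The others on this side were Kcnn4, a calcium-activated potassium channel (-1.18 in marrow and 1.77 in bone), Map1b, a microtubule protein (-1.72 in marrow and 1.22 in bone), Ccdc3, a secreted protein (-1.48 in marrow and 1.09 in bone), and Nbl1, a secreted BMP antagonist (-1.3 in marrow and 0.96 in bone). Arl4d, a small GTPase, moved by -1.16 in marrow and 1.03 in bone, Plaur, the urokinase receptor, by -1.08 in marrow and 0.95 in bone, and Dtna, a dystrophin partner, by -0.93 in marrow and 0.98 in bone. Nbl1 went from 59.9, 106 and 90.8 CPM to 40.3, 37.5 and 26 CPM in marrow and from 179, 228 and 189.8 CPM to 439, 372 and 351 CPM in bone. Control and knockout libraries of Nbl1 were apart in both compartments, and so were those of the other 9 genes on this side. Because these genes were chosen for passing in both compartments, that separation is largely given by the choice and adds no support. The margin could be narrow: in marrow the lowest control of Dtna stood at 8.98 CPM and the highest knockout at 8.92 CPM. Dtna passed in 7 of the 12 fits without 1 library.

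On the side that rose in marrow and fell in bone, Dlk2 (chromosome 17, 46297421 to 46303271, plus strand), a transmembrane relative of the preadipocyte factor Dlk1, stood at 0.636, 0.342 and 0.667 CPM in control marrow and 3.54, 2.72 and 5.63 CPM in knockout marrow. Bone held 9.22, 10.1 and 14.6 CPM in controls and 6.30, 3.81 and 3.16 CPM in knockouts, and the difference of -4.14 ± 0.53 (SE, adjusted p = 8.4e-05) was the largest negative one among genes reaching 10 CPM in a group. Prelp, a leucine-rich matrix proteoglycan, rose from 658, 447 and 523 CPM to 841, 829 and 1724 CPM in marrow, highest in replicate 3, and fell from 743, 761 and 853 CPM to 314, 302 and 269.9 CPM in bone (difference -2.47 ± 0.31, adjusted p = 0.00011). Cdkn1c, an inhibitor of cyclin-dependent kinases, did likewise (1.15 in marrow and -0.93 in bone), with control bone at 486, 526 and 622 CPM and knockout bone at 313, 271 and 271 CPM. The control difference between bone and marrow was much reduced in the knockout for Cdkn1c: the ratio of group means was 4.37 in controls and 1.03 in knockouts.

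Fgfrl1, a decoy receptor for fibroblast growth factors, moved by 0.90 in marrow and -0.78 in bone, P3h2, a collagen prolyl 3-hydroxylase, by 0.75 in marrow and -1.43 in bone, and Ephx2, the soluble epoxide hydrolase, by 0.97 in marrow and -0.99 in bone. Cds1, an enzyme of phosphatidylinositol synthesis, moved by 0.76 in marrow and -1.12 in bone, and Dnajb1, a heat shock co-chaperone, by 1.2 in marrow and -0.78 in bone. P3h2 overlapped between genotypes in marrow (23.0, 25.5 and 29.6 CPM in controls, 28.5, 51.4 and 51.6 CPM in knockouts) and was apart in bone. Sc5d and Arxes2, given above, completed the 10.

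**Figure D4:**
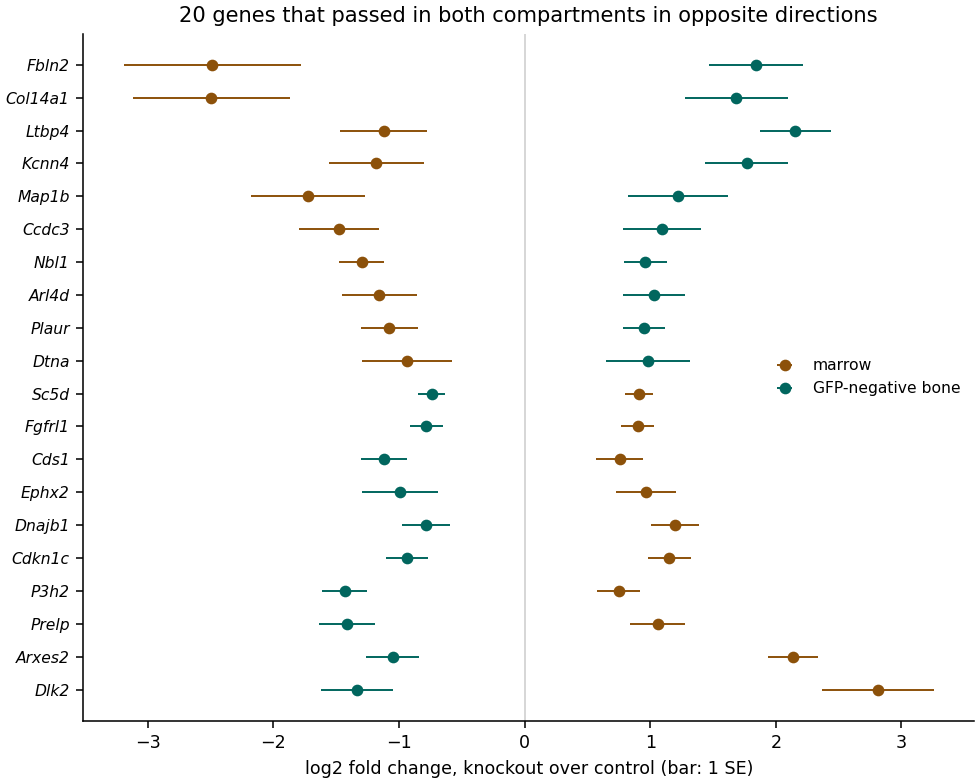
Log2 fold change of knockout over control, with 1 standard error, in marrow (brown) and GFP-negative bone (green) for 20 genes that passed the test in both compartments with opposite signs, ordered by the difference. The upper 10 lie below 0 in marrow and above 0 in bone and the lower 10 the reverse, with Fbln2 and Dlk2 at the ends.

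Several of the largest positive differences rested on low counts or on 1 library. Fgf18, a growth factor of bone and cartilage, had the largest fitted value (4.81 ± 1.44, adjusted p = 0.0451), with 0.112, 0.214 and 2.10 CPM in control marrow and 0.0966, 0 and 0.235 CPM in knockout marrow, so its marrow fold is not well determined. It rose in bone from 3.07, 0.944 and 5.57 CPM to 10.3, 19.8 and 7.30 CPM, and without control marrow replicate 3 the difference was 2.65 (adjusted p = 0.55). Igfbp6, a binding protein for IGF2, and Itgbl1, an integrin-like matrix protein, also failed without that library (adjusted p = 0.1 and 0.057). Their differences with it were 2.97 ± 0.80 and 3.78 ± 0.90. Fgf18 and Igfbp6 each passed in only 4 of the 12 fits without 1 library, and Itgbl1 in 10. Itgbl1 also failed with the replicate block (adjusted p = 0.052). Eln, elastin, stood at 139, 195 and 799 CPM in control marrow, 48.1, 53.2 and 56.2 CPM in knockout marrow, 207, 155 and 265 CPM in control bone and 308, 430.2 and 246 CPM in knockout bone. Its difference fell from 3.50 to 2.32 without that library and still passed (adjusted p = 0.0043), and that of Mustn1, a small muscle and skeleton protein, from 3.57 to 2.09 (adjusted p = 0.019), though Mustn1 passed in only 3 of the 12 such fits.

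Megf10, a transmembrane engulfment receptor, had the smallest p-value among the 12 largest positive differences. Knockout bone held 18.7, 24.9 and 14.8 CPM against 2.13, 1.57 and 2.93 CPM in control bone, while marrow held 2.81, 3.63 and 4.24 CPM in controls and 2.96, 2.46 and 2.77 CPM in knockouts. The rise was in bone, the marrow groups overlapped, and the difference was 3.52 ± 0.38 (SE, adjusted p = 1.4e-05). Kcnab1, a potassium channel subunit (3.53 ± 0.95), passed in 6 of the 12 fits without 1 library, and Cpxm2, a carboxypeptidase-like protein (3.16 ± 0.67), in all 12.

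The 12 largest negative differences came with a rise in marrow that passed, and 0 of them with a rise in bone that passed. Pim3, a survival kinase, rose from 168, 115 and 141 CPM to 1202, 1209.9 and 1238 CPM in marrow, and its bone libraries held 144, 123 and 149 CPM and 178, 208 and 131 CPM with overlap (difference -2.79 ± 0.31, adjusted p = 3.5e-05). Scd1, the desaturase that makes monounsaturated fatty acids, rose from 41.6, 109 and 76.3 CPM to 586, 615 and 345 CPM in marrow and was not called in bone (-0.41, difference -3.18 ± 0.37, adjusted p = 9.5e-05). Pde3b, a phosphodiesterase that breaks down cyclic AMP, rose in marrow by 2.55 with a bone value of 0.12 that did not pass (difference -2.43 ± 0.35), and Has2, a hyaluronan synthase, by 2.28 with -0.11 (difference -2.39 ± 0.48).

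Adm, the vasodilator adrenomedullin, rose in marrow and fell in bone (2.03 in marrow and -0.57 in bone, difference -2.60 ± 0.28, adjusted p = 2e-05), from 6.14, 6.71 and 6.90 CPM to 31.4, 28.6 and 20 CPM and from 19.0, 24.3 and 23.1 CPM to 12.9, 16.6 and 15.4 CPM. Fam89a rose in marrow and fell in bone (0.70 in marrow and -2.01 in bone). Cbln2, a secreted synaptic organizer, had a difference of -2.96 ± 0.51, and that of Ablim1, an actin-binding protein (-2.91 ± 0.83, adjusted p = 0.043), passed in 3 of the 12 fits without 1 library.

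Besides the osteoblast and adipocyte lists, 6 lists had no call in one direction. At an unadjusted p under 0.05 these had, in that direction, 0 negative members for Wnt targets, contractile genes and blood and osteoclast regulators, 1 for complement, and 0 positive members for the cell cycle and oxidative phosphorylation. DESeq2 gave 0 in each. Under some other alternatives complement and Wnt targets had 1 negative call, as given below. Scaling by library totals raised the negative calls from 2 to 6 for PTH signalling and cyclic AMP, from 6 to 12 for immediate early and heat shock, from 2 to 5 for glucocorticoid and circadian genes, from 3 to 8 for cholesterol synthesis, from 1 to 6 for ATF4 and amino acid supply and from 2 to 4 for collagen modifying enzymes. It lowered the positive calls from 7 to 3 for osteocyte genes and from 7 to 4 for collagen modifying enzymes. With no filter the negative calls of the immediate early list fell from 6 to 2 and the positive calls of the osteocyte list from 7 to 4.

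**Figure D5:**
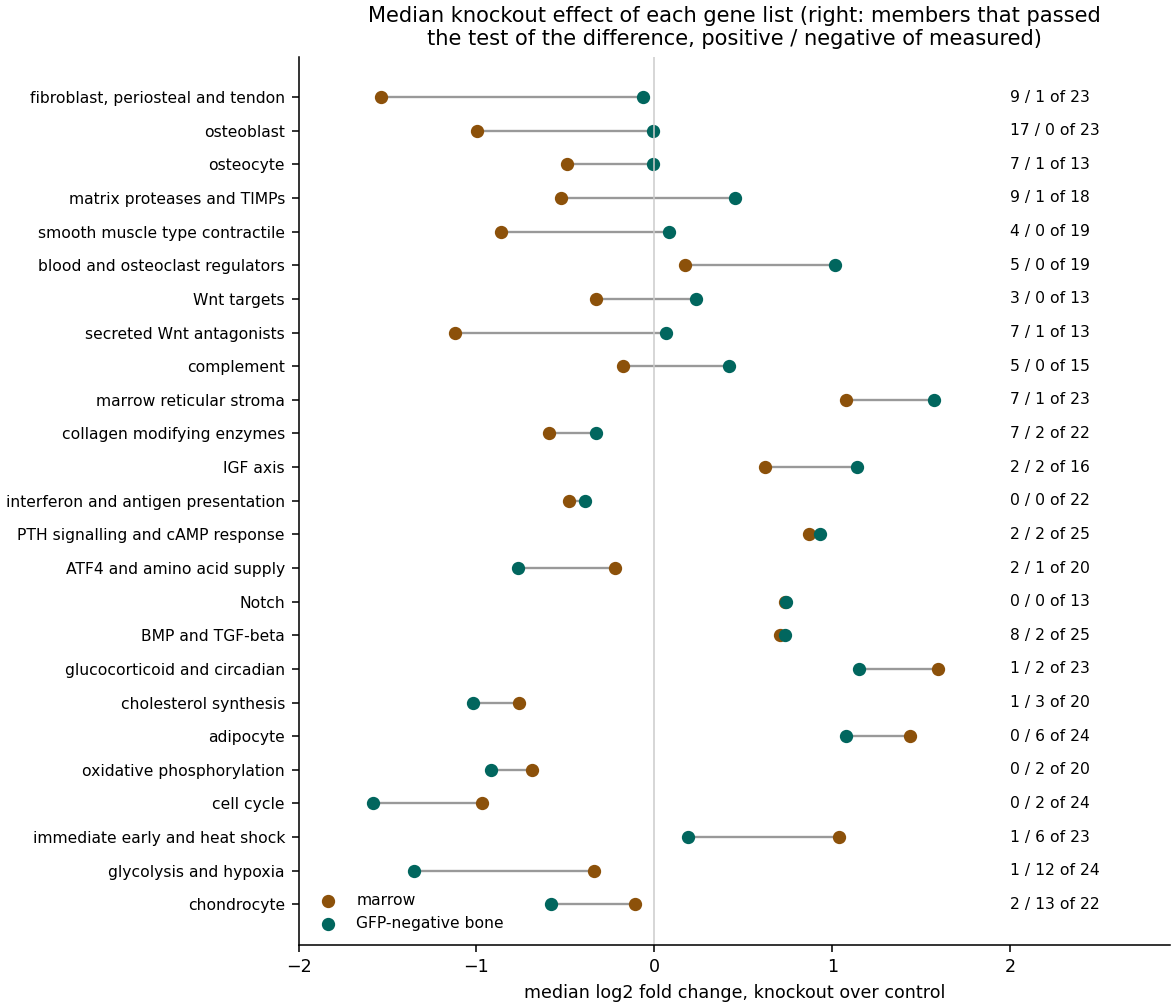
Median log2 fold change of knockout over control in marrow (brown) and GFP-negative bone (green) over the measured genes of 25 lists, ordered by the median of the members' differences, with the number of members passing the test of the difference at the right. The fibroblast, osteoblast and osteocyte lists lie at the top, with bone to the right of marrow, and the chondrocyte and glycolysis lists at the bottom, with bone to the left.

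Fibroblast, periosteal and tendon genes fell in marrow more than in bone, as osteoblast genes did. Of 23 measured, 9 had a positive difference that passed and 1 a negative one, with a median of 1.45. In marrow 14 fell and in bone 7. Dcn and Lum, small proteoglycans of collagen fibrils, had differences of 1.68 ± 0.27 (SE, adjusted p = 0.00064) and 1.67 ± 0.27 (SE, adjusted p = 0.00065), and Postn, periostin, 1.62 ± 0.26 (SE, adjusted p = 0.00061). Postn held 157, 224 and 189.9 CPM in control marrow and 60.7, 66.0 and 70.5 CPM in knockout marrow, against 3499, 2940.1 and 3209.6 CPM and 3698, 3615 and 2937 CPM in bone, where the groups overlapped. Fn1, fibronectin, rose in both compartments and by more in bone (0.97 in marrow and 2.42 in bone, difference 1.45 ± 0.24, adjusted p = 0.0009). Fmod, fibromodulin, was the single negative call (1.18 in marrow and -0.51 in bone, difference -1.70 ± 0.29, adjusted p = 0.0011).

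Genes that cut or modify the matrix leaned the same way. Of 18 matrix proteases and TIMPs, 9 had a positive difference that passed and 1 a negative one, with a median of 1.10. Besides Mmp2 these included Fap, a serine protease of activated stroma (-1.2 in marrow and 0.17 in bone), Mmp16, a membrane-bound metalloproteinase (-1.31 in marrow and 0.45 in bone), and Timp1, an inhibitor of metalloproteinases (-2.39 in marrow and -0.55 in bone). Timp1 went from 102, 152 and 126 CPM to 21.1, 28.5 and 22.9 CPM in marrow and from 234, 229 and 233 CPM to 135, 166 and 175 CPM in bone, lower in both. Of 22 collagen modifying enzymes 7 were positive and 2 negative, with a median of 0.30 that turned to -0.09 under library totals. Bmp1, which removes the procollagen C-propeptide, fell in marrow and rose in bone (-0.71 in marrow and 0.47 in bone), Adamts2, which removes the N-propeptide, rose in bone (1.17) with -0.19 in marrow, and Pcolce, which enhances BMP1, fell in both (-1.48 in marrow and -0.40 in bone).

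Cartilage genes were expressed mostly in bone and were reduced there by more than in marrow. Of 22 chondrocyte genes measured, 13 had a negative difference that passed and 2 a positive one, with a median of -0.90. In bone 13 fell and 4 rose, and in marrow 8 fell and 6 rose. Epyc, a proteoglycan of growth cartilage, held 408, 349 and 491 CPM in control bone and 66.2, 54.6 and 56.6 CPM in knockout bone, against 14.6, 16.6 and 14.6 CPM and 5.57, 5.11 and 6.53 CPM in marrow (difference -1.39 ± 0.20, adjusted p = 0.00018). Its groups were apart in both compartments. Matn3, a cartilage matrix adaptor (-0.87 in marrow and -2.16 in bone), and Cnmd, chondromodulin (-1.16 in marrow and -2.40 in bone), fell likewise.

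Sox9, the factor that directs cartilage formation, rose slightly in marrow and fell in bone (0.41 in marrow and -0.46 in bone, difference -0.87 ± 0.14, adjusted p = 0.00063). Col9a3, a chain of type IX collagen, fell in bone (-0.83) with 0.24 in marrow. Col2a1, the main cartilage collagen, did not pass in either compartment (0.37 in marrow and -0.22 in bone) and its difference of -0.59 ± 0.22 had an adjusted p of 0.12. The 2 positive calls were Col11a1 (1.04) and Col11a2, chains of type XI collagen, the latter rising in bone from 857, 1085 and 1052 CPM to 3753, 3296 and 4015 CPM (1.89, difference 1.56 ± 0.33, adjusted p = 0.0072). The summed level of the 22 genes was 43500 to 58400 CPM in control bone and 35000 to 45500 CPM in knockout bone. Negative calls numbered 9 to 14 when 1 library was left out, with 9 in the fits without control bone replicate 3 and without knockout bone replicate 2, and 8 in replicates 1 and 2 alone.

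Of 13 measured osteocyte genes 7 had a positive difference that passed and 1 a negative one (median 1.16), though replicates 1 and 2 alone left 1 positive call. Leaving out 1 library left 3 to 7, with 3 without knockout marrow replicate 1 and 4 without control marrow replicate 2 or knockout marrow replicate 3. Dmp1, a phosphoprotein of early osteocytes, held 405, 641 and 509 CPM in control marrow and 218, 321 and 138 CPM in knockout marrow, and 748, 736 and 1164 CPM and 1274, 1451 and 1302 CPM in bone. It fell in marrow, did not pass in bone (0.60) and had a difference of 1.80 ± 0.42 (SE, adjusted p = 0.017). Phex, the endopeptidase of phosphate balance, and Tnc, tenascin C, rose in both and by more in bone (differences 0.81 ± 0.18 and 1.08 ± 0.26), while Pdpn, podoplanin, fell in both and by more in marrow (1.5 ± 0.37).

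Secreted antagonists of Wnt signalling were reduced mainly in marrow. Of 13 measured, 8 fell in marrow and 4 in bone, and 7 had a positive difference that passed and 1 a negative one, with a median of 0.74. Leaving out 1 library left 4 to 6 positive calls, with 4 without control marrow replicate 2, replicate 3 of control bone, knockout bone or knockout marrow, or knockout marrow replicate 1. Replicates 1 and 2 alone left 2 and library totals 3. Notum, which removes the lipid of Wnt proteins, moved by -1.12 in marrow and 0.58 in bone (difference 1.70 ± 0.32, adjusted p = 0.0021), and Wif1, which binds Wnt, by -1.07 in marrow and 0.13 in bone (difference 1.2 ± 0.25, adjusted p = 0.0051). Frzb, which also binds Wnt, fell in both compartments (-2.09 in marrow and -1.22 in bone). Sostdc1, a relative of sclerostin, held 1.01, 1.92 and 0.952 CPM in control marrow and 0.0966, 0 and 0.0469 CPM in knockout marrow, where the few reads set no firm fold, and 0.564, 0.524 and 0.599 CPM and 2.07, 0.927 and 1.49 CPM in bone (adjusted p of the difference = 0.00013). Dkk1 fell in both (-2.84 in marrow and -1.60 in bone, difference 1.24 ± 0.35, adjusted p = 0.036) and Dkk2 was the negative call (2.03 in marrow and -0.17 in bone, difference -2.20 ± 0.59, adjusted p = 0.024). These passed in 2 and 6 of the 12 fits without 1 library. Among 13 Wnt target genes 3 were positive (6 by DESeq2) and none negative (1 without control marrow replicate 3). They were Ccn4, a matricellular protein (1.66 ± 0.19, adjusted p = 3.4e-05), Tcf7, a Wnt transcription factor (1.11 ± 0.22, adjusted p = 0.0036), and Nkd2, an inhibitor of Dishevelled (1.02 ± 0.26, adjusted p = 0.018).

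Of 25 genes of BMP and TGF-beta signalling 8 had a positive difference and 2 a negative one, with a median of 0.01 that turned to -0.37 under library totals. Negative calls numbered 4 with the replicate block, by DESeq2 and in replicates 1 and 2 alone, 9 under library totals and 0 with no filter, and positive calls 3 in replicates 1 and 2 alone. Without 1 library the negative calls were 0 (control marrow replicate 1 or control bone replicate 3) to 3 (control marrow replicate 3 or knockout marrow replicate 2), and 1 without any other library but knockout marrow replicate 1. In marrow 15 rose and in bone 17. Bmp3, an antagonist within the family, held 57.6, 89.6 and 65.4 CPM in control marrow, 50.1, 47.8 and 37.0 CPM in knockout marrow, 85.5, 105 and 96.8 CPM in control bone and 249, 210.3 and 240.2 CPM in knockout bone. It fell in marrow and rose in bone, with a difference of 1.93 ± 0.29 (SE, adjusted p = 0.00047). Tgfb2 and Tgfb3 had differences of 1.13 ± 0.22 (SE, adjusted p = 0.0034) and 0.86 ± 0.14 (SE, adjusted p = 0.00071), and Bmp8a 1.13 ± 0.26 (SE, adjusted p = 0.01), with a rise that passed in bone for all 3. No gene of 13 in the Notch list passed, with 0 calls in either direction by edgeR's quasi-likelihood test, 1 at an unadjusted p under 0.05 and 0 by DESeq2. Its median of 0.06 turned to -0.31 under library totals.

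Marrow reticular stroma genes rose in both compartments, and where they differed the rise on the log2 scale was mostly larger in bone. Their summed level was far lower in bone, and in CPM it rose by more in marrow. Of 23 measured, 19 rose in marrow and 20 in bone, with medians of 1.08 and 1.57, and 7 had a positive difference and 1 a negative one (2 and 2 under library totals). Without 1 library the positive calls numbered 3 to 9, with 3 without control bone replicate 3 and 4 without replicate 1 of control or knockout marrow. The summed level was 36800 to 50000 CPM in control marrow, 66800 to 75800 in knockout marrow, 2710 to 3440 in control bone and 7990 to 8140 in knockout bone. Cxcl12, a chemokine that keeps haematopoietic progenitors in marrow, held 26370, 19378 and 19444 CPM in control marrow and 31559, 29660 and 36708 CPM in knockout marrow, and 1256, 1273 and 903 CPM and 3204, 2954 and 3238 CPM in bone. Its groups were apart in both compartments and the difference was 0.87 ± 0.23 (SE, adjusted p = 0.027), which passed in 7 of the 12 fits without 1 library. Grem1, a BMP antagonist, rose by 1.77 in marrow and 3.16 in bone (difference 1.39 ± 0.34, adjusted p = 0.014), Pdgfra, a growth factor receptor of mesenchymal cells, by 1.32 in marrow and 2.13 in bone (difference 0.80 ± 0.17, adjusted p = 0.0063), and Esm1, a secreted proteoglycan, by 0.65 in marrow and 1.57 in bone (difference 0.92 ± 0.21, adjusted p = 0.01). Lepr, the leptin receptor that marks these cells, rose by 1.31 in marrow and 1.99 in bone, and its difference of 0.68 ± 0.21 (SE, adjusted p = 0.056) did not pass. It did pass under 8 of the 22 alternatives, among them the replicate block (adjusted p = 0.025), DESeq2, and the fits without control marrow replicate 3 (adjusted p = 0.018) and without control bone replicate 1.

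Adipocyte genes also rose in both compartments, but where they differed the rise was larger in marrow. Of 24 measured, 20 rose in marrow and 15 in bone and none fell. A negative difference passed for 6 and a positive one for 0 (1 at an unadjusted p under 0.05 and 0 by DESeq2), and the median of -0.15 turned to 0.10 without control bone replicate 2. With the replicate block and the length correction together 1 positive difference passed. Beside Acsl1 and Scd1, Plin2, a lipid droplet coat protein, rose in marrow (0.87) and did not pass in bone (-0.19), with a difference of -1.06 ± 0.14 (SE, adjusted p = 0.0001), and Cebpd, a factor of early adipogenesis, rose in both (1.43 in marrow and 0.42 in bone, difference -1.01 ± 0.22, adjusted p = 0.0068). Plin1, the coat protein of mature adipocytes, rose from 4.60, 6.24 and 5.33 CPM to 88.1, 54.9 and 65.5 CPM in marrow and from 0.753, 1.52 and 0.659 CPM to 2.84, 2.88 and 5.36 CPM in bone. The marrow rise was the larger (difference -1.85 ± 0.50, adjusted p = 0.024) and passed in 9 of the 12 fits without 1 library. In the IGF axis (16 genes, 2 positive and 2 negative) the binding protein Igfbp5 rose by more in bone (1.01 in marrow and 2.23 in bone), and the insulin receptor substrates Irs1 and Irs2 by more in marrow (2.55 in marrow and 1.17 in bone for Irs1, 2.25 in marrow and 1.3 in bone for Irs2). Irs1 passed in 4 of the 12 fits without 1 library.

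Of 20 cholesterol synthesis genes 3 had a negative difference (5 with the replicate block) and 1 a positive one. Beside Sc5d, Lss, lanosterol synthase, fell in bone alone (0.07 in marrow and -1.15 in bone, difference -1.22 ± 0.16, adjusted p = 0.00012), Mvk, mevalonate kinase, fell in both (-0.73 in marrow and -1.45 in bone, passing in 4 of the 12 fits without 1 library), and Sqle, squalene epoxidase, fell by more in marrow (-1.53 in marrow and -0.71 in bone). The median of -0.06 turned to 0.02 with DESeq2's size factors. Of 20 genes of the ATF4 and amino acid list 2 were positive, Pycr1 and Aldh18a1 of proline synthesis (1.01 ± 0.20 and 0.48 ± 0.12), and 1 negative (3 with the replicate block), the glutamine transporter Slc1a5, which rose in both and by more in marrow (-0.86 ± 0.21). Together these were 15% of that list, against 7.79% over all genes tested.

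Immediate early genes were raised in marrow and for the most part not in bone. Of 23 measured genes of the immediate early and heat shock list, 16 rose in marrow and 6 in bone. A negative difference passed for 6 and a positive one for 1, with a median of -0.72. Junb, an AP-1 factor, rose from 785, 1253 and 1462 CPM to 3019, 3320.4 and 2542 CPM in marrow, and bone held 1199, 1192 and 1445 CPM and 1304, 1338 and 1167 CPM with overlap (difference -1.35 ± 0.34, adjusted p = 0.019). Zfp36, which destabilizes messenger RNA, and Klf6, a zinc finger factor, followed the same pattern (differences -1.49 ± 0.37, adjusted p = 0.021 and -1.38 ± 0.28, adjusted p = 0.0052), and Dnajb1 fell in bone. Fos rose in marrow (1.04) and not in bone (0.15), and its difference of -0.89 ± 0.31 (SE, adjusted p = 0.09) did not pass. It did pass with the replicate block (adjusted p = 0.017) and under library totals (adjusted p = 0.0082), and in 0 of the 12 fits without 1 library. The negative calls numbered 2 without replicate 3 of control or knockout bone, 3 without knockout marrow replicate 2, 9 without control marrow replicate 3 and 4 to 7 without any other library. They numbered 10 with the replicate block and 11 in replicates 1 and 2 alone.

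Glucocorticoid and circadian genes rose widely in both compartments (19 of 23 in marrow and 18 in bone), and 3 differed between them (13%, against 7.79% over all genes tested). Per1, a clock repressor, rose by more in marrow (2.77 in marrow and 1.82 in bone, difference -0.95 ± 0.25, adjusted p = 0.024), Nr1d1, a nuclear receptor of the clock, rose in marrow (1.39, difference -1.17 ± 0.34, adjusted p = 0.044), and Cry1, a clock repressor, rose in bone (0.82, difference 0.96 ± 0.26, adjusted p = 0.025). They passed in 6, 2 and 7 of the 12 fits without 1 library. Cell cycle genes fell in both compartments, 19 of 24 in marrow and 21 in bone, with medians of -0.97 and -1.58. All 24 differences were negative in sign (22 with DESeq2's size factors) and 2 passed, Cdc20 (-0.83 ± 0.23, adjusted p = 0.033) and Tyms (-0.68 ± 0.20, adjusted p = 0.0485), of which Cdc20 passed in 4 and Tyms in 0 of the 12 fits without 1 library. These 2 were 8.3% of the list, close to the 7.79% over all genes tested. Tyms failed with the replicate block (adjusted p = 0.059) and Cdc20 with the length correction (adjusted p = 0.058). With DESeq2's size factors 0 passed by edgeR's quasi-likelihood test (8 at an unadjusted p under 0.05), with library totals 16, and by DESeq2 itself 2. Oxidative phosphorylation genes fell in 18 of 20 in marrow and 20 of 20 in bone, and 2 differences passed, Cycs (-0.46 ± 0.14, adjusted p = 0.0497) and Ndufa4 (-0.51 ± 0.15, adjusted p = 0.044), against 0 with DESeq2's size factors (4 at an unadjusted p under 0.05), 18 with library totals and 2 by DESeq2. The share that passed was 10% of the list, also close to 7.79%. Cycs passed in 1 and Ndufa4 in 4 of the 12 fits without 1 library, and neither with the length correction (adjusted p = 0.079 and 0.07).

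The list of PTH signalling and cyclic AMP genes had similar medians in the 2 compartments, 0.87 in marrow and 0.93 in bone over 25 genes. In each compartment 16 of them rose, where 23.1% of all genes tested rose in marrow and 21.5% in bone. The median difference of 0.12 turned to -0.25 under library totals and to -0.06 without control marrow replicate 3. A difference passed for 4 members (16%, against 7.79% over all genes tested). Pthlh, which encodes the local ligand of the receptor, held 0.636, 2.27 and 4.43 CPM in control marrow and 0.225, 0.261 and 0.188 CPM in knockout marrow, and 3.64, 2.41 and 5.75 CPM and 6.51, 12.8 and 4.58 CPM in bone (difference 4.38 ± 0.87, adjusted p = 0.0024). It was low throughout, and the rise in bone passed although the bone groups overlapped. Nr4a2, a nuclear receptor induced by cyclic AMP, fell in marrow from 11.8, 19.4 and 26.6 CPM to 10.1, 7.2 and 6.38 CPM and held 55.4, 57.6 and 58.7 CPM and 69.5, 69.8 and 66.5 CPM in bone, where the change did not pass (difference 1.52 ± 0.28, adjusted p = 0.0019). Wnt4, a ligand, and Prkar2b, a regulatory subunit of protein kinase A, rose in marrow (0.91 and 1.15) and did not pass in bone (-0.17 and 0.17), with differences of -1.08 ± 0.17 (SE, adjusted p = 0.0004) and -0.98 ± 0.23 (SE, adjusted p = 0.013).

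Regulators of blood cells and osteoclasts had 5 positive differences of 19 (8 with the replicate block) and no negative one, with a median of 0.76. Positive calls numbered 2 without replicate 3 of control or knockout bone, 3 without knockout marrow replicate 1 or 2, 4 or 5 without any other library, 3 in replicates 1 and 2 alone and 2 under library totals. Beside Cxcl12 and Spp1, Sema4d, a semaphorin, fell in marrow and rose in bone (-0.83 in marrow and 0.76 in bone, difference 1.59 ± 0.29, adjusted p = 0.0018), and Cxcl14, a chemokine, rose in bone (0.56) with -0.20 in marrow. Of 15 complement genes 5 were positive (8 with the replicate block and 3 under library totals) and none negative. There was 1 negative call under library totals, without replicate 3 of knockout marrow or of knockout bone, and in replicates 1 and 2 alone. C1ra and C1s1, proteases of the classical pathway, rose in bone alone (0.99 and 0.70), and C1qtnf6 fell by more in marrow (-1.12 in marrow and -0.46 in bone). Of 22 interferon and antigen presentation genes 0 passed by edgeR's quasi-likelihood test (1 at an unadjusted p under 0.05 and 0 by DESeq2).

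Contractile genes of the smooth muscle type had 4 positive differences of 19 and a median of 0.95. Positive calls numbered 1 without knockout bone replicate 2, 2 without replicate 2 or 3 of control bone, replicate 1 or 2 of knockout marrow or knockout bone replicate 1, 3 to 5 without any other library, and 1 under library totals. The median was 0.57 without control marrow replicate 3. In marrow 9 fell and in bone 2. Tpm1, a tropomyosin, had a difference of 0.75 ± 0.14 (SE, adjusted p = 0.0018), and Actg2, an actin, fell in both and by more in marrow (-4.30 in marrow and -2.04 in bone, difference 2.26 ± 0.50, adjusted p = 0.0081). Actn1 and Mylk had differences of 0.87 ± 0.25 (SE, adjusted p = 0.037) and 0.95 ± 0.28 (SE, adjusted p = 0.041), and neither passed without control marrow replicate 3 (adjusted p = 0.11 and 0.094). Mylk also failed with the replicate block (adjusted p = 0.056). Acta2 itself fell in both compartments (-3.96 in marrow and -2.16 in bone), and its difference of 1.80 ± 0.68 (SE, adjusted p = 0.14) did not pass.

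Among genes that moved the same way in both compartments, Slc9a2, a sodium-proton exchanger, fell from 28.7, 50 and 35.6 CPM to 3.15, 2.24 and 1.27 CPM in marrow and from 56.7, 77.5 and 64.3 CPM to 29.3, 17.3 and 40.4 CPM in bone (difference 2.84 ± 0.47, adjusted p = 0.0011). Cryab, a small heat shock protein, Dok5, a docking protein, and Fetub, a secreted protease inhibitor, also fell in both and by more in marrow (2.13 ± 0.28, 2.16 ± 0.30 and 2.04 ± 0.42). In the other direction, Slc5a3, the inositol transporter, Txnip, a glucose-responsive inhibitor of thioredoxin, and Elovl4, a fatty acid elongase, rose in both compartments and by more in marrow (differences -1.70 ± 0.31, -1.64 ± 0.39 and -2.09 ± 0.39). With the replicate block Txnip no longer passed (adjusted p = 0.057).

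Of the 11 lists of markers of cells outside the osterix lineage, 4 had members that passed the test of the difference, at shares of 11.1 to 40% against 7.79% over all genes tested. None of the measured genes of the megakaryocyte, neutrophil, macrophage, B cell, T and NK cell, endothelial and skeletal muscle lists passed the test of the difference, with 0 calls by edgeR's quasi-likelihood test and 0 by DESeq2. These lists held 6, 10, 10, 5, 2, 9 and 6 measured genes, of which 1 B cell gene and 1 endothelial gene had an unadjusted p under 0.05. Some of their median differences moved with single libraries. Without control bone replicate 2 they went from 0.21 to 2.17 (neutrophil), 0.14 to 1.27 (macrophage) and 0.29 to 1.88 (B cell). Without knockout marrow replicate 2 the megakaryocyte median went from -3.52 to 1.17. These lists had 0 calls in those fits too, so a lack of calls does not show equal effects. Erythroid genes gave 1 positive call of 9, osteoclast genes 2 of 5, pericyte genes 3 of 10, and Schwann and neural genes 1 positive and 1 negative of 9. The osteoclast calls numbered 0 without control marrow replicate 2, without control bone replicate 1 and under library totals, and the pericyte calls 2 to 4 without 1 library. The pericyte calls were Abcc9 (1.32), Kcnj8 (1.36) and Cspg4 (1.33). Erythroid genes summed to 559 CPM in control bone replicate 2, against 38.1 CPM in the lowest control bone library. That library held 160 CPM over the neutrophil list, against 5.27 and 27.9 CPM in control bone replicates 1 and 3. Over the macrophage list it held 55.3 CPM, against 10.3 and 15.9 CPM. The osteoclast list summed to 554 to 744 CPM in control marrow, 224 to 528 in knockout marrow, 588 to 613 in control bone and 563 to 718 in knockout bone, lower in knockout marrow than in the other groups. Its part in the results was not tested.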

How the data were processed

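RNA was sequenced from sorted osterix-derived cells at postnatal day 21. The deposited files hold raw counts per gene and library; per the submitters' processing notes, STAR, featureCounts, DESeq2 and mm10 were used, with versions, strand setting and treatment of multiply mapped reads not given in the sources used here. Symbols and coordinates came from GENCODE vM21 (54409 of 54446 gene IDs matched).

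From the authors' counts, edgeR 4.0.16 (R 4.3.3) fitted 6 group means to all 18 libraries, so that they shared 1 estimate of spread, with filterByExpr by group (minimum count 10, total 15; 15516 genes kept), TMM scaling and a robust quasi-likelihood F-test, two-sided, adjusted by Benjamini and Hochberg over all genes tested. The threshold was an adjusted p of 0.05. The interaction contrast, and the knockout effect in each compartment, came from this fit. Values are CPM with TMM scaling. The script was tested on simulated data. Alternatives were DESeq2 1.42.0, other scalings, filters, libraries, a correction for transcript length, a replicate block and leaving out each library.

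Library totals were 16443595 to 24686089 counts. Within groups, replicate counts differed by 13.7 to 50.7 times the sampling variance, so none was merged. Same-numbered bone and marrow libraries of 1 genotype deviated together (correlations of 0.195 to 0.333 over 7969 genes averaging 10 CPM or more, each above 0.1), a pairing taken from the data and not from the labels; across genotypes the numbers were not taken to pair.

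Named genes were, at 10 CPM or more in a group and leaving out bare gene models, mitochondrial and Y-linked genes: the 12 largest differences each way, the 6 smallest p-values each way, up to 10 each way that passed in opposite directions and 5 each way in the same direction, up to 4 per list by p at any level, and Pth1r; some of these are not reported here. Bglap, Bglap2, Col1a1, Runx2, Sp7, Ibsp, Eno1, Tpi1, Pgk1, Gapdh, Ldha, Hk1, Hif1a, Epas1, Vegfa, Fn1, Fmod, Dkk1, Dkk2, Acta2, Sox9, Col2a1, Col11a1, Col11a2, Lepr, Fos, Abcc9, Kcnj8, Cspg4, Ddx3y and Xist were added after their values were seen, as were the RUNX and HIF motifs. The comparison and the lists (25 of biology, 11 of other cells' markers) were chosen with earlier results of these data known. Where a symbol had 2 gene IDs, the more abundant was used.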

Additional observations from a re-analysis of the deposited data

Results flagged for a closer look

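The test of the difference itself marked 1209 genes as responding unequally to the knockout in bone and marrow. The positive ones with the smallest p-values were Mmp2 (1.98), Itgb5 (1.69), Plat (2.86), Gprc5c (1.89), Gpc1 (1.22) and Fxyd6 (2.57), as log2 differences of bone less marrow. The negative ones were Bnip3 (-2.34), Aldoa (-1.45), Arxes2 (-3.19), Sc5d (-1.65), Acsl1 (-2.76) and Pgam1 (-1.25). No group had enough libraries for a test of outlying samples.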

How the results depend on the processing

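Of the 1209 genes, 0 passed in the opposite direction under any of the 22 alternatives. Most alternatives left the totals within 1.5 times: 1703 with DESeq2, 1245 with DESeq2's size factors in edgeR, 926 with no filter, 1287 with a stricter filter, 1148 with the 12 libraries alone and 1252 with the length correction. Scaling by library totals moved them to 3734, of which 408 were positive, 3326 negative and 1178 at least 2-fold. DESeq2 gave 1129 positive genes, no filter gave 304 negative ones and the 12 libraries alone 295. Replicates 1 and 2 of each group, an alternative chosen after seeing the data, left 563 genes, 347 positive and 216 negative, of which 420 were at least 2-fold. That alternative has fewer samples, and the causes of the other moves were not tested. The replicate block, which pairs same-numbered bone and marrow libraries of 1 genotype, gave 1605 genes (911 positive and 694 negative), and 1650 together with the length correction. Among the 148 named genes that passed, the block ended the call of Itgbl1, Mylk, Txnip and Tyms and of no other. Leaving out 1 library gave 899 to 1244 genes, 531 to 738 of them positive, 348 to 506 negative and 564 to 761 at least 2-fold. Of those 148 genes, 92 passed under all 22 alternatives and 0 changed sign. With 3 libraries in a group the median standard error over all genes tested was 0.316 on the log2 scale. A difference had to be well above its standard error to pass. Those of Acta2 (1.80 ± 0.68) and Col2a1 (-0.59 ± 0.22) did not. Differences well above 0.316 could therefore be missed, most of all in genes of low count.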

Other observations

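Across the genes tested, longer transcripts had higher knockout effects in each compartment, with Spearman correlations between effect and transcript length of 0.406 in marrow and 0.444 in bone over 15511 genes. For the difference of the effects the correlation was 0.062. With the effects corrected for length, their correlation with each other was 0.558 in place of 0.634. The numbers of genes given above as rising or falling within a compartment are without that correction. How far length bears on them was not tested. These are descriptions across genes, which are not independent.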
